A study of Homo sapiens with 6 samples.

Results

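The kinesin superfamily was examined in A549 cells after knockdown of CEP20. Its members here were 41 genes for kinesin heavy and light chains, taken by symbol from the deposited expression table. The kinesin-13 genes (KIF2A, KIF2B and KIF2C) were not among them, nor were KIF19, KIF25, STARD9 and the light chain KLC3. All 41 were found among the 60624 rows of the table, and 37 of them were among the 14778 genes that had a mean of at least 1 TPM and were tested. They were divided by role into 12 mitotic kinesins, 16 transport kinesins (kinesin-1, kinesin-2 and kinesin-3 motors with their light chains and accessory subunit) and 13 others. KIF17, also a kinesin-2 motor, was placed among the others with the kinesins of the cilium.

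A549 cells, a long-established line from a human lung adenocarcinoma, were used, and the study compared 3 siCEP20 samples with 3 siCTR samples to ask how loss of CEP20, a microtubule-binding protein of the centrosome region, changes gene expression. The siCEP20 cells received small interfering RNA (siRNA) against CEP20 and the siCTR cells a control siRNA, for 3 days by the labels. All samples are of this single cell line in F-12K medium by the labels (DMEM in the paper's methods), 1 label field names a plasmid transfection for both groups, and the labels do not say which of the siRNAs described in the methods was sequenced. The sources do not state whether the replicates were separate cultures, so p-values measure the spread between these samples, which may be technical.

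CEP20 itself fell in each siCEP20 library, with 29.2, 30.5 and 35.1 TPM with siCTR and 16.2, 15.3 and 17.3 TPM with siCEP20 (51.4% of the control level; log2 fold change -0.92, standard error 0.0915, adjusted p = 0.000205, limma). The unit, TPM, is a transcript's share of its library after division by transcript length, so that levels of different genes can be compared and sequencing depth is unknown. Over all tested genes the log2 fold changes had a median of 0.13 rather than 0, and group medians are therefore also given relative to it. With median-of-ratios scaling of the libraries this median was -0.0052. All 6 epithelial markers examined were present, from EPCAM at 0.834, 1.24 and 1.05 against 3.28, 3.85 and 3.01 TPM to KRT7 at 3729, 3879 and 4071 against 4506, 4341 and 4252 TPM. At an adjusted p under 0.05 all 6 were higher in siCEP20 samples, beside 30.2% of all tested genes. After median-of-ratios scaling 3 of the 6 were higher, beside 19.7%. Of 16 markers of other cell types, 3 reached the filter (COL1A1, RBFOX3 and CD68) and all 3 were higher in both fits. The summed level of the 16 ran from 42.0 to 52.3 TPM in siCTR samples and from 85.6 to 102.7 TPM in siCEP20 samples, while COL1A2, DCN, GAP43 and SNTN were listed at 0 in every library. The part of these markers in the results below was not tested.

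Kinesins are motor proteins that use ATP to move along microtubules or to act on microtubule ends. Mitotic kinesins push spindle poles apart, align and separate chromosomes and build the midzone used in cell division, and many of their genes are transcribed mainly in G2 and mitosis. Transport kinesins carry vesicles, organelles and mRNA, mostly toward microtubule plus ends, and kinesin-2 also drives transport into cilia. In a line that divides rapidly, such as A549, both kinds are expressed.

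More kinesin genes were higher than lower in siCEP20 samples. On the log2(TPM + 1) scale the largest changes were increases of CENPE, KIF1C, KIF18A and KIF24, an order that depends on the pseudocount (by the ratio of mean TPM among tested members, KIF17, KIF24, KIF20B and KIF18A exceeded KIF1C). KIF3B was the 1 tested member that passed as lower. At an adjusted p-value under 0.05, 20 of the 37 tested members were higher, beside 30.2% of all tested genes, and 1 (KIF3B) was lower, beside 13.2% of all tested genes. With a fold change over 1.5 also required, 8 members were called higher (KIF18A, KIF20B, CENPE, KIF3C, KIF1C, KIF17, KIF24 and KIF21A) beside 11.2% of all tested genes, and with a fold change under 0.67 required, 0 were called lower beside 4.61%. Every siCEP20 value lay above every siCTR value for 23 tested members (38.4% of all tested genes) and below for 1 (17.0%), and the groups overlapped for 13. The median log2 fold change of the 37 was 0.31, or 0.18 relative to all tested genes. With median-of-ratios scaling, 15 members were higher and 2 lower, where 19.7% of all tested genes were higher and 21.8% lower. After values were corrected for the length and GC content of transcripts, 12 were higher and 3 lower, where 19.7% of all genes in that fit were higher and 21.2% lower.

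**Figure D1:**
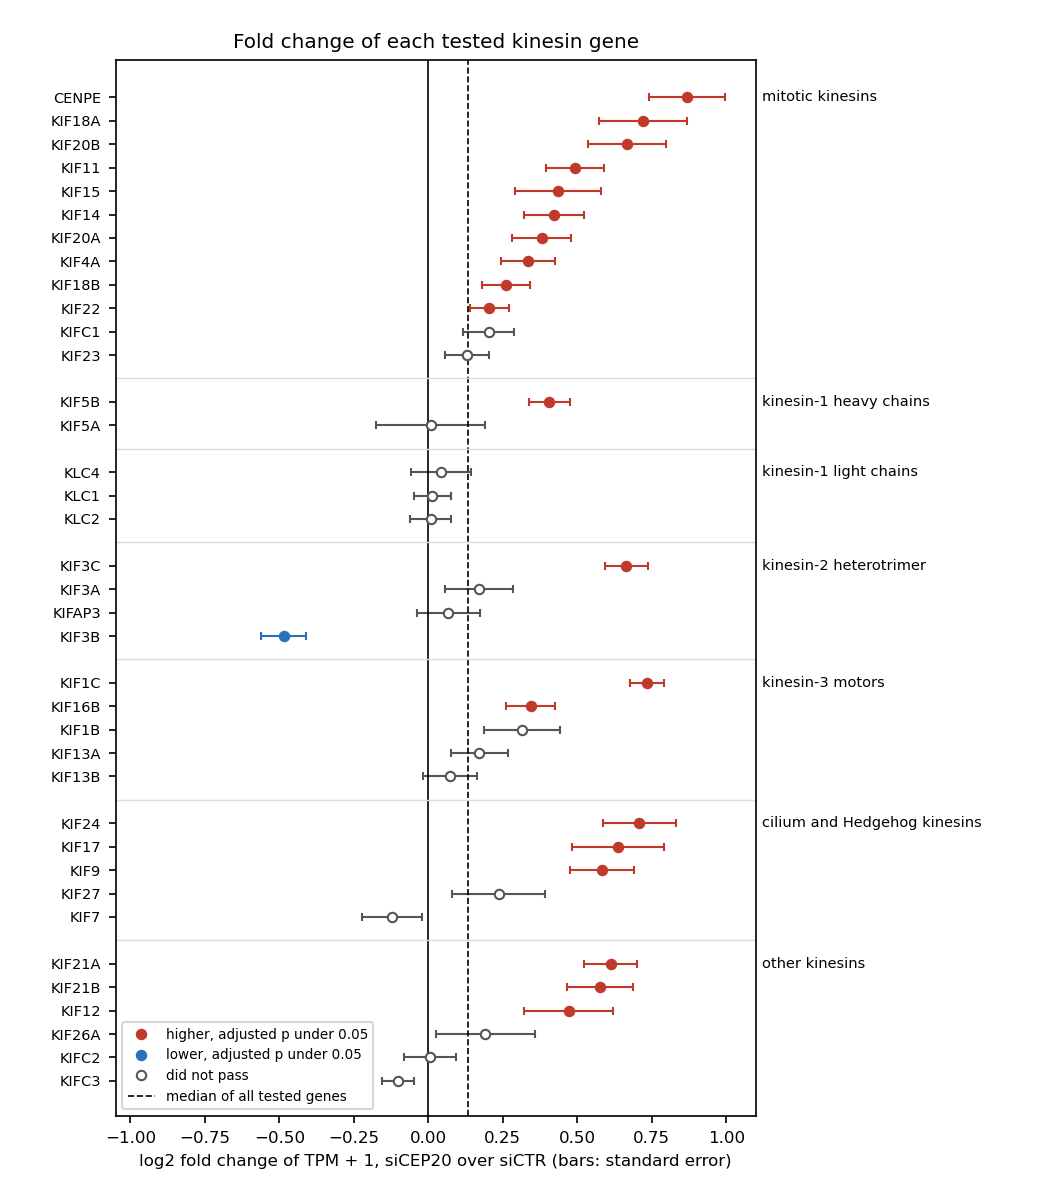
Log2 fold change of TPM + 1 (siCEP20 over siCTR, x axis) of the 37 tested kinesin genes, grouped by role, with the standard error as bars; filled points passed an adjusted p-value under 0.05 and the dashed line is the median of all tested genes (0.13). Of the 12 mitotic kinesins 10 lie among the filled points on the right, and KIF3B is the 1 filled point left of 0.

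Among the mitotic kinesins, 10 of 12 passed the adjusted p threshold as higher (beside 30.2% of all tested genes) and 0 as lower (beside 13.2%), and for 11 every siCEP20 value lay above every siCTR value (beside 38.4%). Their median log2 fold change was 0.40, or 0.27 relative to all tested genes, with a range from 0.13 to 0.87. In bulk samples like these, a change in the share of cells in mitosis and a change in RNA per cell cannot be told apart. The 3 with the largest log2 fold changes were among the 5 mitotic kinesins with the lowest TPM. CENPE, the kinetochore motor that brings chromosomes to the spindle equator (ENSG00000138778, chromosome 4 from 103105349 to 103198445, minus strand, hg38), was at 1.63, 1.61 and 1.91 TPM with siCTR and 4.0, 3.97 and 3.89 TPM with siCEP20. The groups lay far apart compared with the spread within either (log2 fold change 0.87, standard error 0.129, adjusted p = 0.00119, limma). KIF18A, which dampens chromosome oscillations at the plus ends of kinetochore microtubules (ENSG00000121621, chromosome 11 from 28020619 to 28108156, minus strand), was at 4.83, 4.26 and 6.47 TPM with siCTR and 9.10, 10.05 and 8.20 TPM with siCEP20. Its means were 5.19 ± 1.15 and 9.12 ± 0.922 TPM (SD, n = 3 each), and siCTR replicate 3, the highest control, stayed below every siCEP20 value (log2 fold change 0.72, standard error 0.148, adjusted p = 0.0055). KIF20B, a motor of the spindle midzone that acts in the completion of cytokinesis (ENSG00000138182, chromosome 10 from 89701590 to 89774939, plus strand), was at 2.78, 2.81 and 2.84 TPM with siCTR and 5.41, 5.54 and 4.28 TPM with siCEP20. Its control values were nearly equal, and siCEP20 replicate 3 was the lowest of the knockdown samples (log2 fold change 0.67, standard error 0.13, adjusted p = 0.00422).

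KIF11, the bipolar motor (Eg5) that slides antiparallel microtubules to separate spindle poles (ENSG00000138160, chromosome 10 from 92574105 to 92655395, plus strand), was at 12.8, 13.2 and 15.7 TPM with siCTR and 20.9, 20.2 and 18.6 TPM with siCEP20, with no overlap (log2 fold change 0.49, standard error 0.0976, adjusted p = 0.00467). KIF15, which can share that task with KIF11, was at 2.52, 2.97 and 3.26 against 4.76, 4.57 and 3.60 TPM (log2 fold change 0.44, standard error 0.144, adjusted p = 0.0391). The closeness of siCTR replicate 3 and siCEP20 replicate 3 left a narrow gap between the groups of KIF15. KIF14, a motor of the midbody that binds citron kinase and PRC1, was at 4.70, 4.46 and 4.57 against 6.77, 6.52 and 6.12 TPM (log2 fold change 0.42, standard error 0.101, adjusted p = 0.011). KIF20A (MKLP2), which brings the chromosomal passenger complex to the midzone, was at 21.7, 24.9 and 26.7 against 30.99, 35.3 and 30.03 TPM (log2 fold change 0.38, standard error 0.0984, adjusted p = 0.0151). KIF4A, the chromokinesin that limits the growth of midzone microtubules together with PRC1, was at 21.3, 21.9 and 24.8 against 28.7, 31.4 and 26.5 TPM (log2 fold change 0.33, standard error 0.0915, adjusted p = 0.0191). KIF18B, a regulator of astral microtubule plus ends, was at 17.1, 18.1 and 19.6 against 21.4, 23.2 and 21.7 TPM (log2 fold change 0.26, standard error 0.08, adjusted p = 0.03).

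The 2 most abundant mitotic kinesins had small fold changes. KIF22 (Kid), a chromokinesin that pushes chromosome arms outward, was at 61.3, 59.6 and 64.7 TPM with siCTR and 74.9, 71.9 and 67.7 TPM with siCEP20, so that its groups were separate (log2 fold change 0.21, standard error 0.0651, adjusted p = 0.0338). KIF23 (MKLP1), the motor subunit of centralspindlin, was at 53.2, 57.5 and 63.1 TPM with siCTR and 63.2, 65.2 and 61.7 TPM with siCEP20, and the highest siCTR value lay above the lowest siCEP20 value (log2 fold change 0.13, standard error 0.0745, adjusted p = 0.192). KIFC1 (HSET), a minus-end motor that focuses spindle poles, was at 20.95, 24.03 and 24.6 against 26.8, 28.1 and 25.4 TPM, with separate groups that did not pass the threshold (log2 fold change 0.20, standard error 0.0847, adjusted p = 0.0867). CENPE, KIF11, KIF18A and KIF20B were higher in each alternative fit that tested them. With median-of-ratios scaling 6 mitotic kinesins remained higher (these 4 with KIF14 and KIF20A), beside 19.7% of all tested genes. With the length and GC correction these 4 did, beside 19.7% of all genes in that fit. KIF4A, KIF15 and KIF22 each lost the call without siCTR replicate 1 or 2 or without siCEP20 replicate 1 or 2, with adjusted p-values up to 0.0694, 0.124 and 0.108. KIF18B lost it without any of these or siCEP20 replicate 3 (up to 0.0994), and KIF20A without siCEP20 replicate 2 (0.0551).

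Some of these values can draw on the reads of other genes. KIF15 overlaps TMEM42 on the same strand, KIF4A overlaps PDZD11 and KIF20A overlaps BRD8 and CDC23 on the opposite strand, and whether strand was used in quantification is not given in the sources used here. KIF4B, an intronless copy of KIF4A, was at 0.161, 0.176 and 0.0836 against 0.231, 0.0621 and 0.147 TPM.

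**Figure D2:**
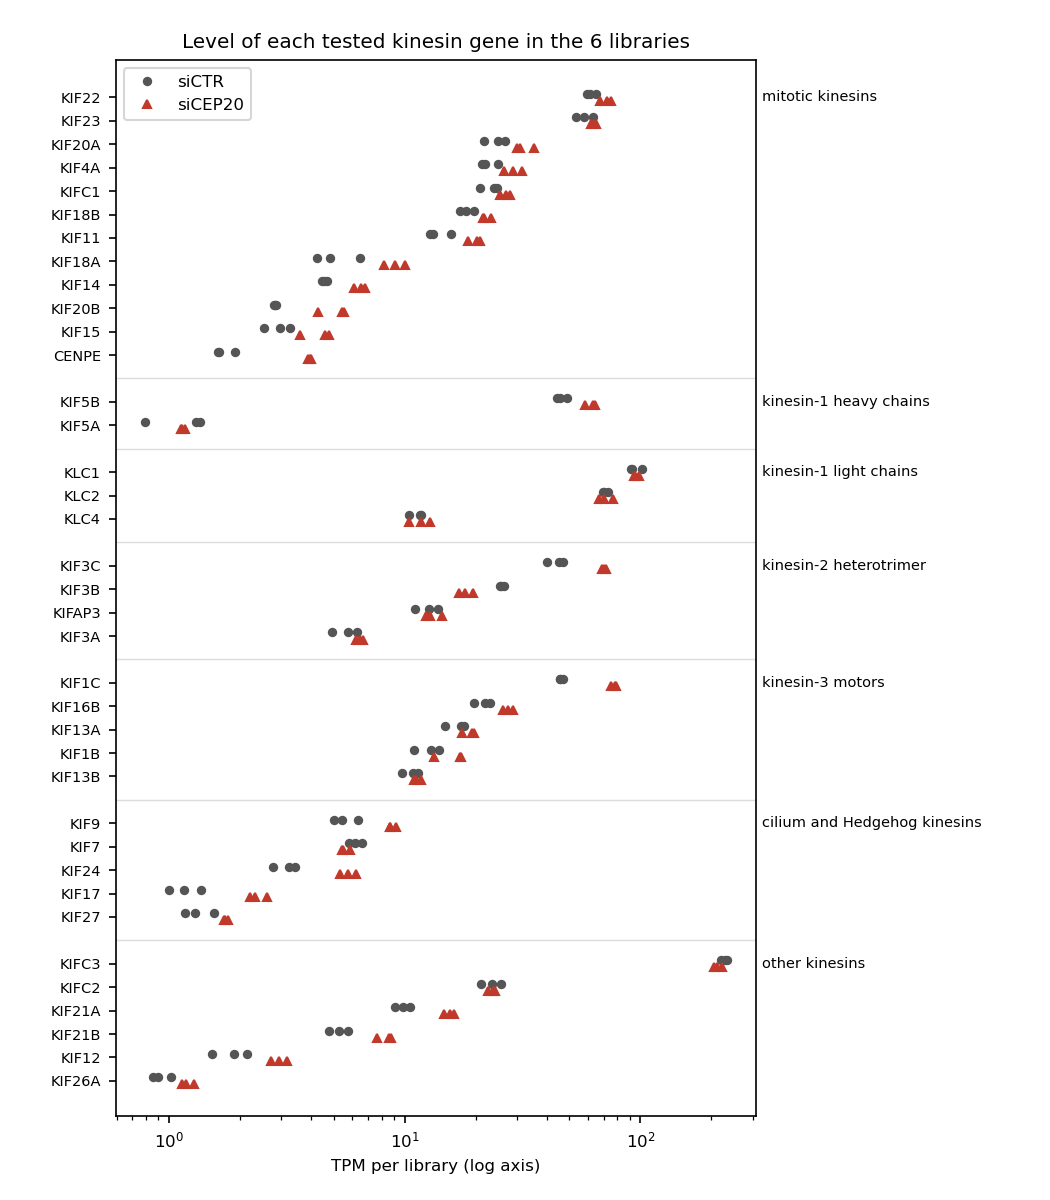
TPM of the 37 tested kinesin genes in each library (x axis, log scale), grouped by role and ordered by mean level; circles are the 3 siCTR and triangles the 3 siCEP20 libraries. CENPE, KIF18A and KIF20B sit at the lower end of the mitotic class with separate groups, while KIFC3 is the most abundant member and its groups overlap.

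The promoters of the mitotic kinesins shared short sequence motifs that the choice of members had not used. The CHR element (TTTGAA, or the variant TTCGAA) and the CCAAT box are bound in many G2/M genes by the MuvB complex and by NF-Y. Both were sought on either strand in RefSeq promoter windows (GRCh38.p14) from 250 bases before to 50 bases after the start of each gene, where 32 of the 41 members had a window. A CHR element of either form was present in 10 of the 12 mitotic kinesins (83.3%), beside 16.4% of all 35116 windows. CCAAT was present in 10 (83.3%, beside 34.6%), and both together in 9 (75.0%, beside 6.38%). Of the 20 other members with a window, 2 had a CHR element (KIF5B and KIF24) and 7 a CCAAT. KIF20A had CCAAT but no CHR element, KIF15 the reverse, and CENPE, with the largest fold change, had neither in its window. A match is a description of the sequence and was not tested for binding.

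The 90 bases before the start site are shown for 3 mitotic kinesins that hold both motifs, and for 2 transport kinesins that moved in opposite directions (KIF3B lower, KIF1C higher). The capitals mark CCAAT and TTTGAA, written as ATTGG and TTCAAA where they lie on the other strand, and sequences run 5′ to 3′ along the gene. None of the 5 stretches overlaps an annotated exon. Start sites are those of RefSeq, and that of KIF11 lies inside the longer GENCODE span given above.
KIF11, chr10:92593040-92593129, plus strand: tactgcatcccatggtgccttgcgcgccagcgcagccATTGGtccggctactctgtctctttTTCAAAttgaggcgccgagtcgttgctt
KIF4A, chrX:70290014-70290103, plus strand: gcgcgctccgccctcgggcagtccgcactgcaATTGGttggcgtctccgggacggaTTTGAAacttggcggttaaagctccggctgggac
KIF18A, chr11:28108157-28108246, minus strand: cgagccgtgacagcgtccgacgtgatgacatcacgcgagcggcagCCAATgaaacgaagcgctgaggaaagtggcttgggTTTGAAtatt
KIF3B, chr20:32277561-32277650, plus strand: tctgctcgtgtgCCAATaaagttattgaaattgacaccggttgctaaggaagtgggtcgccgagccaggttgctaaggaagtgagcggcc
KIF1C, chr17:4997860-4997949, plus strand: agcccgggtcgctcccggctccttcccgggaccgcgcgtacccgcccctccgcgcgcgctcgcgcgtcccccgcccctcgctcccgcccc

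In KIF11 the CCAAT starts 53 bases and the CHR element 28 bases before the start site, in KIF4A 58 and 34 bases, and in KIF18A 45 and 10 bases. The CCAAT thus lay upstream of the CHR element in all 3. KIF3B has a CCAAT 78 bases before its start and no CHR element, and KIF1C has neither in these 90 bases.

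Genes that work with mitotic kinesins were mostly higher where they passed, with exceptions. Of 18 partners of mitotic kinesins, 10 were higher and 1 lower, beside 30.2% and 13.2% of all tested genes (median log2 fold change 0.27, or 0.14 relative to all tested genes). Their smallest adjusted p-values belonged to ANLN, an actin-binding scaffold of the cleavage furrow (0.59, adjusted p = 0.00126), HMMR, a spindle protein that binds TPX2 (0.66, adjusted p = 0.00232), and INCENP, the scaffold of the chromosomal passenger complex (0.50, adjusted p = 0.00251). MAD2L1, a spindle checkpoint protein, was the 1 that was lower (-0.26, adjusted p = 0.0403). RACGAP1, which forms centralspindlin with KIF23, was at 50.1, 46.5 and 47.2 against 41.4, 45.01 and 42.2 TPM and did not pass (adjusted p = 0.086), although its groups were separate. MAD2L1 and RACGAP1 were chosen after their values were seen. After median-of-ratios scaling, 4 of the 18 partners were higher and 2 lower, beside 19.7% and 21.8% of all tested genes. After the length and GC correction, 3 were higher and 2 lower, beside 19.7% and 21.2% of all genes in that fit. The 2 lower genes were MAD2L1 and RACGAP1 in both fits.

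Of 23 other G2/M genes, 11 were higher and 3 lower, beside the same 30.2% and 13.2% of all tested genes (median 0.28, or 0.15 relative to all tested genes). CKS2, a subunit of cyclin-dependent kinase complexes, fell to 57.2% of the control level, from 232 ± 4.87 to 133 ± 6.86 TPM (-0.80, adjusted p = 5.36e-05). MKI67, the proliferation antigen Ki-67 (0.93, adjusted p = 0.000261), and CENPF, a kinetochore protein (0.78, adjusted p = 0.000771), were higher. The summed TPM of the G2/M genes was 1179, 1235 and 1348 with siCTR and 1289, 1321 and 1228 with siCEP20, which overlapped. The summed TPM of the 12 mitotic kinesins, at 225, 235 and 258 against 297, 306 and 278, did not overlap. Neither sum was scaled between libraries. The factors by which median-of-ratios scaling divides a library were 0.902, 0.961 and 0.980 for siCTR and 1.03, 1.09 and 1.05 for siCEP20. Dividing by them nearly closes the gap, which lies between siCTR replicate 3 (258) and siCEP20 replicate 3 (278). The separation of the mitotic sums therefore depended on the scale. Of 19 tested S phase genes, 7 were higher, a share near the 30.2% of all tested genes, and 0 lower, beside 13.2% (median 0.22, or 0.09 relative to all tested genes), led by CDT1, a replication licensing factor (0.69, adjusted p = 0.000194), RRM1, a ribonucleotide reductase subunit (0.32, adjusted p = 0.00346), and GINS2, a subunit of the replicative helicase (0.44, adjusted p = 0.00446). With median-of-ratios scaling, 7 of the G2/M genes were higher and 4 lower, and 4 of the S phase genes were higher and 3 lower, beside 19.7% and 21.8% of all tested genes.

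Among the transport kinesins a few members changed strongly and in both directions. Of 14 tested members, 4 were higher (KIF5B, KIF3C, KIF1C and KIF16B), 1 was lower (KIF3B) and 9 did not pass. These counts are no more than the general shares of 30.2% higher and 13.2% lower. Their median log2 fold change was 0.12, or -0.01 relative to all tested genes. It was -0.02 with median-of-ratios scaling, -0.035 with quantile normalization and -0.07 with the length and GC correction, so that its sign depended on the scale. The choice of members also bears on this median. The light chains and KIFAP3, which are not motors, lay below it (KLC1 0.014, KLC2 0.008, KLC4 0.042 and KIFAP3 0.068). KIF17 (0.64) was not counted in it. KIF5C (kinesin-1) and KIF1A (kinesin-3), both known mainly from neurons, were below the filter and not tested. KIF5C was at 0.679, 0.435 and 0.785 TPM with siCTR and 0.285, 0.345 and 0.197 TPM with siCEP20, lower in each siCEP20 library than in any siCTR library, and KIF1A had a mean of 0.562 TPM over the 6 libraries.

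The kinesin-2 motor subunits moved in opposite directions. KIF3A forms a heterodimer with KIF3B or with KIF3C, and KIFAP3 joins it to cargo. KIF3B (ENSG00000101350, chromosome 20 from 32277651 to 32335011, plus strand) was at 25.6, 25.4 and 26.4 TPM with siCTR and 17.1, 18.00 and 19.4 TPM with siCEP20, and each siCEP20 value lay below each siCTR value (log2 fold change -0.49, standard error 0.0759, adjusted p = 0.00153, limma). KIF3C (ENSG00000084731, chromosome 2 from 25926598 to 25982749, minus strand) was at 40.02, 45.01 and 46.9 TPM with siCTR and 68.5, 70.4 and 71.7 TPM with siCEP20, and its groups were separate in the opposite direction (log2 fold change 0.67, standard error 0.0732, adjusted p = 0.000312). KIF3A was at 4.90, 6.26 and 5.74 against 6.49, 6.19 and 6.64 TPM (adjusted p = 0.257) and KIFAP3 at 11.1, 12.7 and 13.9 against 12.3, 14.5 and 12.8 TPM (adjusted p = 0.637), and neither passed. A ratio within a library does not depend on scaling between libraries. The ratio of KIF3C to KIF3B in TPM, chosen after the values were seen and given as a description, was 1.56, 1.77 and 1.77 in siCTR samples and 4.01, 3.91 and 3.69 in siCEP20 samples, which is a shift from 1.70 ± 0.122 to 3.87 ± 0.164 (SD, n = 3 each). KIF3A was the least abundant of the motor subunits in every library, and its ratio to KIF3B went from 0.192, 0.247 and 0.217 to 0.381, 0.344 and 0.342. Its ratio to the sum of KIF3B and KIF3C was 0.0747, 0.0889 and 0.0783 in siCTR samples. In siCEP20 samples that ratio was 0.0759, 0.0701 and 0.0729, so the groups overlapped. Both KIF3B and KIF3C kept their direction and their side of the threshold in each of 16 alternative fits.

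**Figure D3:**
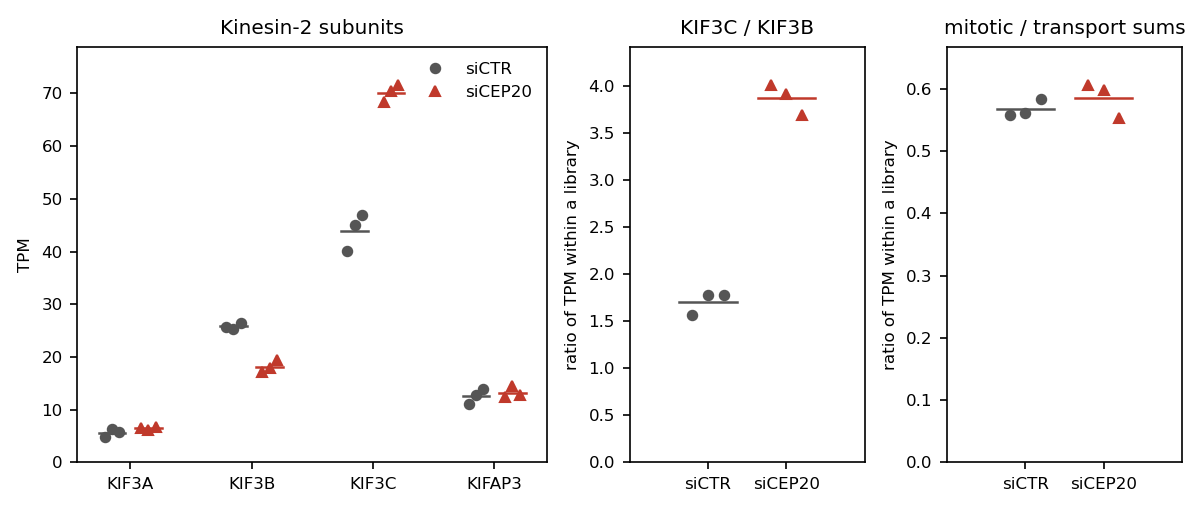
Left, TPM of the kinesin-2 subunits in each library; middle, the ratio of KIF3C to KIF3B within each library; right, the ratio of the summed TPM of mitotic to transport kinesins. Circles are siCTR and triangles siCEP20 libraries (n = 3 each), lines are means and all y axes start at 0. The KIF3C to KIF3B ratio is higher in each siCEP20 library (mean 3.87) than in any siCTR library (mean 1.70), while the ratios on the right overlap.

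Of kinesin-1, the motor rose and its light chains did not pass. KIF5B, the ubiquitous heavy chain (ENSG00000170759, chromosome 10 from 32009015 to 32056425, minus strand), was at 44.4, 45.5 and 49.04 TPM with siCTR and 62.7, 64.1 and 58.2 TPM with siCEP20, without overlap (log2 fold change 0.41, standard error 0.069, adjusted p = 0.00228). KIF5A, a heavy chain known mainly from neurons that overlaps the abundant DCTN2 on the opposite strand, was at 0.788, 1.31 and 1.35 against 1.14, 1.13 and 1.17 TPM (adjusted p = 0.974). The light chains, which bind cargo adaptors, had overlapping groups. KLC1 was at 92.1, 91.1 and 102 against 94.05, 99.1 and 94.5 TPM (adjusted p = 0.877), KLC2 at 70.02, 69.1 and 72.7 against 66.6, 69.9 and 76.8 TPM (adjusted p = 0.932) and KLC4 at a mean of 11.3 against 11.7 TPM (adjusted p = 0.763). KLC1 overlaps COA8 on the same strand, so that the 2 genes can share reads. The ratio of summed heavy to summed light chains was 0.264, 0.275 and 0.277 in siCTR samples and 0.375, 0.363 and 0.324 in siCEP20 samples, with siCEP20 replicate 3 nearest to the controls.

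In the kinesin-3 class, KIF1C stood out. KIF1C, a fast motor for vesicles and mRNA (ENSG00000129250, chromosome 17 from 4997950 to 5028401, plus strand), was at 45.6, 45.8 and 46.96 TPM with siCTR and 74.7, 78.9 and 78.4 TPM with siCEP20. The values within each group lay close together and the groups far apart (log2 fold change 0.73, standard error 0.0574, adjusted p = 7.53e-05, limma), and its adjusted p was the smallest of all members. KIF1C made up 44.96, 41.5 and 41.7% of the summed kinesin-3 TPM with siCTR and 49.9, 50.6 and 52.8% with siCEP20. KIF16B, an early endosome motor, was at 19.7, 21.9 and 22.9 against 26.2, 28.8 and 27.6 TPM (log2 fold change 0.34, standard error 0.0816, adjusted p = 0.0106), and its adjusted p was 0.1 with the length and GC correction. KIF1B, a motor for mitochondria and synaptic vesicle precursors, was at 10.98, 13.96 and 12.9 against 17.2, 17.4 and 13.4 TPM, with siCEP20 replicate 3 below the highest control. It did not pass (adjusted p = 0.0787) but did without that library (0.0260). KIF13A and KIF13B, which transport endosomal cargo, had log2 fold changes of 0.17 and 0.07 and did not pass.

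Summed over the class, transport kinesins were at 403, 419 and 442 TPM with siCTR and 489, 511 and 503 TPM with siCEP20. The summed TPM of the mitotic kinesins went from 239.5 ± 17.01 to 294 ± 14.4 TPM and that of the transport kinesins from 421 ± 19.6 to 501 ± 10.99 TPM (SD, n = 3 each), ratios of 1.23 and 1.19. The ratio of mitotic to transport TPM was 0.559, 0.562 and 0.585 in siCTR samples and 0.607, 0.598 and 0.553 in siCEP20 samples. These values overlapped, and the difference of the mean log2 ratios was 0.04. Side by side, 10 of 12 mitotic and 4 of 14 transport kinesins were higher and the medians were 0.40 and 0.12, a difference that was not tested. Its size depends on the counting of light chains and KIFAP3 as transport kinesins. The overlap of the summed ratios rested on siCEP20 replicate 3, since the other siCEP20 ratios lay above every siCTR ratio and the log2 difference was 0.08 without that library. As a share of the summed TPM of all 41 members, the mitotic kinesins took 24.6, 25.2 and 25.9% with siCTR and 27.8, 27.4 and 26.1% with siCEP20, which did not overlap. This share does not set mitotic against transport kinesins, since the transport sum rose as well. The 7 other kinesins outside the cilium class, which include the abundant KIFC3, summed to 268, 262 and 277 TPM with siCTR. With siCEP20 they summed to 256, 275 and 261 TPM. KIF3C, KIF1C and KIF5B weighed most among the transport members that rose.

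Many adaptors and regulators of transport kinesins rose. Of 24, 17 were higher and 1 lower, beside 30.2% and 13.2% of all tested genes (median 0.39, or 0.26 relative to all tested genes). With median-of-ratios scaling 10 were higher and 1 lower, beside 19.7% and 21.8%, and with the length and GC correction 8 were higher and 2 lower, beside 19.7% and 21.2%. MAP7, a microtubule protein that recruits kinesin-1, changed by 1.02 on the log2 scale (adjusted p = 7.78e-05), KTN1, a kinesin-binding protein of the endoplasmic reticulum, 0.76 (adjusted p = 9.37e-05), and MAPK8IP1, the JIP1 scaffold that binds kinesin light chains, 0.90 (adjusted p = 9.49e-05). The 1 lower gene was TRAK2, an adaptor for mitochondria (-0.41, adjusted p = 0.0133), while its paralog TRAK1 was higher (0.64, adjusted p = 0.00126). Both were named after their values were seen. Of the kinesin genes outside the members, 3 of 7 were tested and 1 was higher. The microtubule-depolymerizing kinesin KIF2A was at 29.4, 28.6 and 34.03 against 45.7, 44.3 and 43.1 TPM (0.52, adjusted p = 0.00147), and it overlaps DIMT1 on the opposite strand. Neither STARD9 (log2 fold change 0.30, adjusted p = 0.183) nor KIF2C passed (-0.01, adjusted p = 0.882).

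Kinesins of the cilium and of Hedgehog signalling split by member. KIF24, which restrains cilium assembly at the mother centriole, was at 2.78, 3.22 and 3.41 TPM with siCTR and 5.76, 6.21 and 5.30 TPM with siCEP20 (log2 fold change 0.71, standard error 0.121, adjusted p = 0.00237). KIF17, a kinesin-2 motor found in cilia and dendrites, was at 1.36, 0.996 and 1.16 against 2.59, 2.22 and 2.31 TPM (log2 fold change 0.64, standard error 0.155, adjusted p = 0.0116). KIF9, a motor of motile cilia and flagella, was at 6.33, 5.01 and 5.42 against 8.68, 8.66 and 9.18 TPM (log2 fold change 0.58, standard error 0.108, adjusted p = 0.00339). All 3 had separate groups and were higher in each alternative fit that tested them. Of 5 tested kinesins of this class, these 3 were higher at the adjusted p, beside 30.2% of all tested genes. For 4 every siCEP20 value lay above every siCTR value, beside 38.4%. KIF7, the regulator of GLI factors at the cilium tip, was at 5.81, 6.18 and 6.57 against 5.49, 5.44 and 5.88 TPM and did not pass (-0.12, adjusted p = 0.366). It was lower with quantile normalization and with the length and GC correction (adjusted p = 0.0178). Its paralog KIF27 was at 1.17, 1.28 and 1.55 against 1.73, 1.71 and 1.79 TPM, with separate groups (adjusted p = 0.252), and KIF6 was below the filter with a mean of 0.326 TPM. KIF9 overlaps KIF9-AS1 and KLHL18, KIF24 overlaps UBAP1 and KIF7 overlaps TICRR, all on the opposite strand.

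Among the other kinesins, the kinesin-4 motors KIF21A and KIF21B, which slow the growth of microtubules, rose together. KIF21A was at 9.11, 9.85 and 10.5 TPM with siCTR and 15.6, 16.2 and 14.7 TPM with siCEP20 (log2 fold change 0.61, standard error 0.0884, adjusted p = 0.00106) and KIF21B at 4.76, 5.25 and 5.76 against 8.76, 8.62 and 7.60 TPM (log2 fold change 0.58, standard error 0.11, adjusted p = 0.00385), each with separate groups. KIF12 was at 2.14, 1.89 and 1.52 against 3.17, 2.71 and 2.93 TPM (log2 fold change 0.47, standard error 0.148, adjusted p = 0.0331). Its call was lost without siCTR replicate 2 or 3 or without any 1 siCEP20 replicate (adjusted p up to 0.101). KIFC3, a minus-end motor of cell junctions and the Golgi, was the most abundant member, at 229.8, 220.4 and 233 TPM with siCTR and 205, 222 and 210.5 TPM with siCEP20. Its groups overlapped (log2 fold change -0.10, standard error 0.0534, adjusted p = 0.162), but with median-of-ratios scaling it was lower (adjusted p = 0.00606). It made up 25.2, 23.6 and 23.4% of the summed TPM of all 41 members in siCTR samples and 19.2, 19.9 and 19.7% in siCEP20 samples. A long noncoding RNA gene overlaps it on the opposite strand. KIFC2, another minus-end motor, was at 21.02, 23.6 and 25.7 against 22.6, 24.2 and 23.7 TPM (adjusted p = 0.96). KIF26A was at 0.895, 0.855 and 1.02 against 1.27, 1.18 and 1.14 TPM (adjusted p = 0.385), and KIF26B was below the filter with a mean of 0.0109 TPM.

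Fold change rose with transcript length in these libraries. Over 14737 genes with a known length of the canonical transcript, the Spearman correlation between length and log2 fold change was 0.25, across genes, which are not independent replicates and share the same 6 libraries. Over the 12 mitotic kinesins it was 0.64, with KIF22 (2081 bases) and CENPE (8541 bases) as the shortest and the longest, and over the 14 tested transport kinesins 0.37. After the correction for length and GC content it was 0.01 over all tested genes, 0.52 over the mitotic and 0.11 over the transport kinesins. The median log2 fold change of the mitotic kinesins was 0.19 in that fit and 0.26 with median-of-ratios scaling, where the median of all tested genes was near 0 in both. The part of transcript length in the differences of single genes was not tested beyond this correction.

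**Figure D4:**
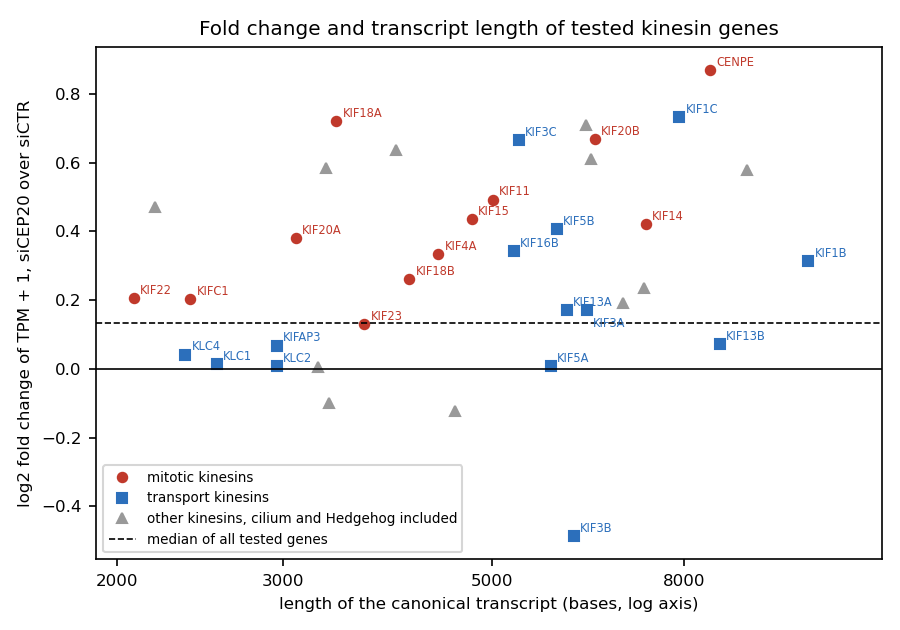
Log2 fold change of TPM + 1 (siCEP20 over siCTR, y axis) against the length of the canonical transcript in bases (x axis, log scale) for the 37 tested kinesin genes; circles are mitotic, squares transport and triangles other kinesins, and the dashed line is the median of all tested genes (0.13). The mitotic kinesins ascend from KIF22 at 2081 bases to CENPE at 8541 bases, with KIF18A above the trend, and KIF3B lies apart below 0.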

How the data were processed

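RNA-seq of 3 siCEP20 and 3 siCTR samples was analysed. The authors trimmed reads with fastp 0.20.1, aligned them to hg38 with HISAT2 2.1.0 and quantified genes with StringTie 2.0, and the deposited values are TPM per Ensembl gene in a single table. TPM holds no read counts, so the authors' DESeq2 test could not be repeated, depth is unknown, and precision rests on the 3 samples per group.

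Genes whose mean reached 1 TPM were compared as log2(TPM + 1), computed from the deposited TPM. The test was limma 3.58.1 (R 4.3.3; lmFit, then eBayes with its trend option; all 6 samples, no covariate), with Benjamini-Hochberg adjustment over all tested genes. For low genes this scale makes a change look smaller than it is. Calls used the study's thresholds (adjusted p under 0.05, and where stated a fold change over 1.5 or under 0.67). A gene's TPM alone, tested by exact permutation, could not reach a p below 0.1. The steps were tested on simulated data before use. Names, positions and transcript lengths came from GENCODE release 44, promoters from RefSeq. Protein sequences were not analysed here.

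The members and companion gene lists were written by hand and chosen with earlier results of these data known. Values in every sample are given for members that passed and for the 2 most abundant of each class, and of each companion list other than the cell type markers the 3 with the smallest adjusted p are named. EPCAM and KRT7 are named as the epithelial markers with the lowest and the highest TPM. The fits were repeated with a pseudocount of 0.1, with quantile normalization, with median-of-ratios scaling, without the filter or with one at 5 TPM, with eBayes lacking the trend, with a block for the replicate number, with a loess correction (span 0.5) for transcript length and GC content, for protein-coding genes only, after summing rows of 1 symbol, at a fold change of 2, and without each library in turn. Figures were drawn with matplotlib 3.10.9 in Python 3.11.15.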

Additional observations from a re-analysis of the deposited data

How the results depend on the processing

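The 13 members KIF11, KIF18A, KIF20B, CENPE, KIF5B, KIF3C, KIF1C, KIF9, KIF17, KIF24, KIF21A and KIF21B (higher) and KIF3B (lower) passed the adjusted p threshold in each of the 16 alternative fits that tested them. The matching share of all tested genes was not computed, nor was the share called with a fold threshold in the alternative fits. Whether these counts are unusual therefore cannot be told. The 8 members called higher became 2 with median-of-ratios scaling, 2 with quantile normalization, 1 with the length and GC correction, 4 with a mean of at least 5 TPM and 0 with a fold change of 2 required (fewer genes tested or a stricter threshold in the last pair). A pseudocount of 0.1 added KIF9, KIF12 and KIF21B (log2 fold changes 0.66, 0.65 and 0.66). Their ratios of mean TPM were 1.582, 1.588 and 1.585, which the scale of TPM + 1 reduced to below 1.5. The count called lower, 0, became 1 (KIF3B) with scaling, with quantile normalization and with the length and GC correction. At the adjusted p alone, the length and GC correction left 12 higher, and 3 were lower with it, 2 with scaling and 3 with quantile normalization. The mitotic median was 0.19 with the length and GC correction, 0.26 with scaling and 0.25 with quantile normalization, and the transport median turned to -0.068, -0.024 and -0.035. The causes were not tested.

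With 1 library left out, the log2 fold change of CEP20 ran from -0.97 to -0.84, the members called higher from 7 to 9 and called lower from 0 to 0, those higher at the adjusted p from 14 to 19 and lower from 1 to 1, the mitotic median from 0.33 to 0.44, the transport median from 0.08 to 0.16 and the log2 ratio of mitotic to transport TPM from 0.02 to 0.08. Over single members and alternatives, 487 values kept direction and side of the threshold, 51 fell short of it, 6 newly passed and 39 changed sign.

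Members that did not pass changed sign as follows (log2 fold changes). With the length and GC correction: KIF13A -0.049, KIF13B -0.18, KIF23 -0.061, KIF26A -0.064, KIF27 -0.017, KIF3A -0.074, KIF5A -0.20, KIFAP3 -0.096, KIFC2 -0.17, KLC1 -0.11, KLC2 -0.14 and KLC4 -0.062. With median-of-ratios scaling: KIF13B -0.071, KIF23 -0.024, KIF5A -0.072, KIFAP3 -0.078, KIFC2 -0.14, KLC1 -0.14, KLC2 -0.15 and KLC4 -0.10. With quantile normalization: KIF13B -0.092, KIF3A -0.0081, KIF5A -0.12, KIFAP3 -0.096, KIFC2 -0.13, KLC1 -0.062, KLC2 -0.068 and KLC4 -0.12. With 1 library left out, the values ran from -0.12 to 0.079 for KIF5A, from -0.012 to 0.14 for KIFAP3, from -0.066 to 0.072 for KIFC2, from -0.015 to 0.064 for KLC1, from -0.047 to 0.053 for KLC2 and from -0.023 to 0.11 for KLC4.

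The correlations of same-numbered deviations from the group means were 0.157, -0.0614 and -0.0623. Replicate 1 of siCTR correlated best with its own number, and siCTR replicates 2 and 3 correlated better with another number. The main fit used no pairing, but with 3 samples per group these correlations cannot exclude one. With the replicate number as a replicate block, 17 members were higher and 1 lower at the adjusted p and 8 were called higher (KIF12, KIF15 and KIF22 lost the call), with log2 fold changes as before (CEP20 -0.92, mitotic median 0.40, transport median 0.12). Depth is unknown, so what it limits could not be given.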
